A study of Mus musculus with 16 samples.

Results

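The comparison described here is that of livers lacking both Arid1a and Arid1b (DKO, labelled Arid1a/b DKO) with livers lacking Arid1a alone (KO, labelled Arid1a KO), 9 days after tamoxifen. It used 2 DKO and 2 KO libraries of the 16 libraries in the series, and all 17831 of the 55291 listed genes that passed a filter on low counts. The DKO and KO mice, and the 2 WT mice whose levels are set beside them, all received vehicle (DMSO). The labels count days from the injection of tamoxifen. Arid1a loss is common to both groups compared and the loss of Arid1b is what differs between them. A further 2 KO and 2 WT livers were taken 30 days after tamoxifen, also with vehicle. Another 2 KO and 2 WT livers were given a nuclear receptor agonist (TC in the column names). The 2 sets serve as comparisons of KO with WT that share no library with DKO against KO. The labels give the cell type as hepatocytes while the series text describes whole liver, and the driver of the deletion is not stated beyond the letters ALB in the names of WT columns. Both are stated here only as the labels give them, and the libraries were treated as tissue.

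ARID1A and ARID1B are large subunits of the canonical BAF (SWI/SNF) complex, a machine that uses ATP to slide or evict nucleosomes and so opens enhancers and promoters. A complex holds either ARID1A or ARID1B, never both, so that a cell without ARID1A can still assemble the complex around ARID1B. In adult liver, hepatocytes use enhancers of this kind to express plasma proteins, clotting and complement factors, urea cycle and bile acid enzymes and cytochrome P450s at high levels.

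The DKO libraries held 32026312 and 47768610 counted reads, against 14585002 and 25670479 in KO and 13493021 and 30780098 in WT. Their mitochondrial share was 1.17% and 0.861% in DKO and 1.78% and 1.497% in KO. The correlation of log2 CPM (counts per 1000000, scaled by TMM to correct for composition) was 0.973 between the DKO libraries, 0.977 between the KO libraries and 0.900 to 0.920 between the groups. The TMM factors were 1.32 and 1.32 in DKO and 0.936 and 0.983 in KO, so scaling by total counts alone shifts the median gene by a log2 value of 0.48, against 0.02 with TMM. Below, values in CPM are TMM-scaled and log2 fold changes are of DKO over KO with their standard error. A gene was called at a Benjamini-Hochberg adjusted p under 0.05 in edgeR's quasi-likelihood F test, and rose or fell is written of called genes only. The series text calls the replicates biological without saying how they were drawn, and the p-values measure the spread between these samples.

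The targeted genes did not show the deletions at the level of whole-gene counts. Arid1a stood at 90.0 and 102 CPM in DKO, against 86.5 and 89.1 CPM in KO and 71.4 and 76.2 CPM in WT, so that no mutant library was below a WT library. Arid1b stood at 24.3 and 25.4 CPM in DKO, against 37.6 and 45.9 CPM in KO and 37.6 and 52.3 CPM in WT. Both DKO libraries were below every KO and WT library for Arid1b. Its log2 fold change was -0.75 ± 0.28 with an edgeR adjusted p of 0.0774, which did not pass the threshold. A count over all exons can keep reads of a transcript that lacks a deleted part, so these values check the Arid1b label only by their direction and do not check the Arid1a label.

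Of 22 BAF subunits tested, 1 rose and 2 fell, which is 13.6% called against 22.0% over all genes tested (9.92% higher and 12.1% lower). Their median log2 was -0.07, against 0.02 over all genes. The ATPase Smarca4 was at 108 and 123 CPM in DKO and 108 and 98.6 CPM in KO, a log2 of 0.16 ± 0.16. Its alternative ATPase Smarca2 fell to 85.8 and 72.9 CPM in DKO, against 220 and 258 CPM in KO and 233 and 220 CPM in WT (log2 -1.59 ± 0.23, edgeR adjusted p 0.000945). KO and WT overlapped for Smarca2. The accessory subunit Smarcd2 fell to 53.6 and 62.1 CPM in DKO, against 144 and 112 CPM in KO. The Smarcd2 call was lost on leaving out any DKO or KO library and with total-count scaling. The PHD-finger subunit Dpf1 rose at a low level, with 1.24 and 1.41 CPM in DKO against 0.293 and 0.159 CPM in KO, a call also lost on leaving out any of these libraries. Dpf1 was below the level set for naming genes and is given because it completes the 3 calls. With total-count scaling 10 BAF subunits were called higher and 1 lower. Of 7 subunits particular to the sister complexes PBAF and ncBAF, edgeR called 0 in either direction, with 1 lower at an unadjusted p under 0.05, and DESeq2 called 0.

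A large part of the liver transcriptome differed between the genotypes. In DKO against KO, 3928 genes (22.0% of those tested) were called, 1769 higher (9.92%) and 2159 lower (12.1%). Of these, 637 rose and 848 fell by a log2 of at least 2, while 60 rose and 132 fell by at least 5. The libraries of the groups did not overlap for 5921 genes higher in DKO (33.2%) and 5814 lower (32.6%), called or not. Absence of overlap was required of genes named below for their size of change, so it is not repeated for them as support. For scale, 4710 genes (26.4%), 2246 higher (12.6%) and 2464 lower (13.8%), were called in DKO against WT and 101 (0.566%), 48 higher (0.269%) and 53 lower (0.297%), in KO against WT at 9 days, comparisons that share libraries with each other and with DKO against KO. The split between directions depended on scaling, with 4811 higher and 1285 lower by total counts, so that 78.9% of calls were higher against 45% with TMM. Fewer genes were called when a library was left out: 960 higher and 1330 lower without DKO replicate 1, 1260 and 1490 without DKO replicate 2, 421 and 1197 without KO replicate 1, and 443 and 1213 without KO replicate 2. Genes called in either direction lie along the whole range of levels in the plot of level against fold change.

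**Figure D1:**
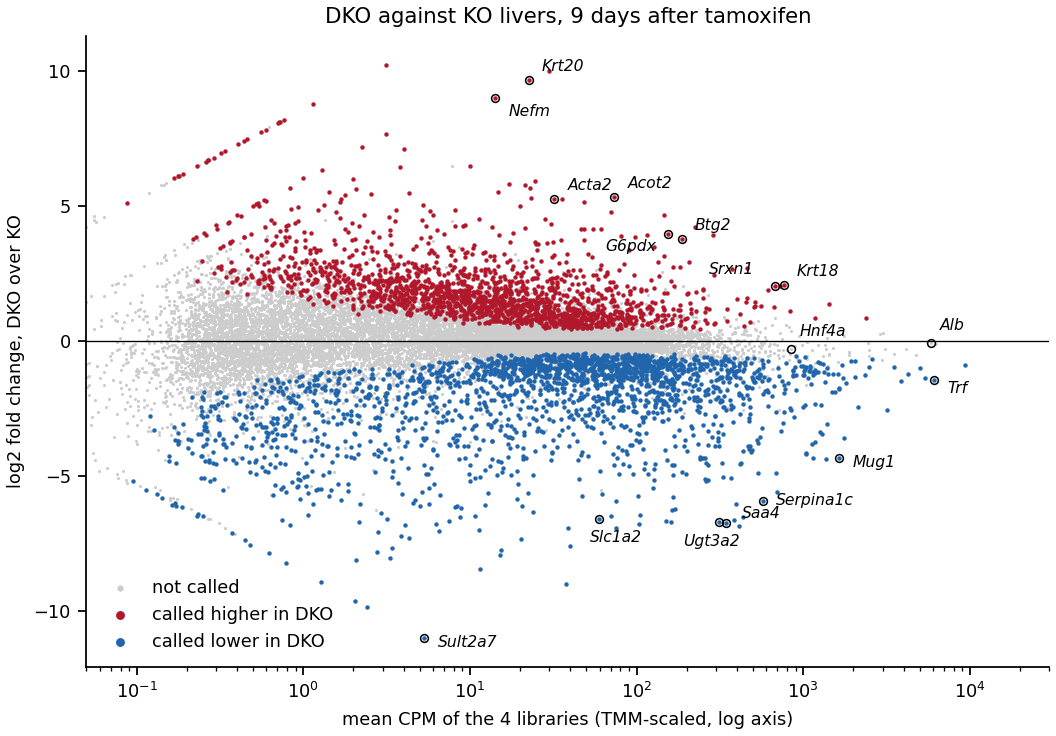
Each point is a gene tested in DKO against KO livers at 9 days. The x axis is the mean CPM of the 4 libraries on a log axis and the y axis the log2 fold change of DKO over KO. Red marks the 1769 genes called higher, blue the 2159 called lower and grey those not called. Named genes are circled, among them Mug1 at a log2 of -4.35 and Alb, not called, at -0.08.

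Transcripts of secreted hepatocyte proteins were among the called falls of the largest CPM difference. Murinoglobulin Mug1, a plasma protease inhibitor, fell to 185 and 122 CPM in DKO, against 2893 and 3360 CPM in KO and 4157 and 2522 CPM in WT. Its log2 fold change was -4.35 ± 0.47. Transferrin, Trf, the iron carrier of plasma, fell to 3248 and 3347 CPM in DKO, against 9651 and 8133 CPM in KO (log2 -1.43 ± 0.30). The vitamin D-binding protein Gc was at 2297 and 2827 CPM in DKO, against 6526 and 5420 CPM in KO (log2 -1.22 ± 0.25). Against WT, the KO livers overlapped for Mug1 and Trf. For Gc they were higher by a narrow margin, the lower KO value being 5420 CPM and the upper WT value 5409 CPM. Such statements on KO against WT, here and below, give only the order of 2 and 2 libraries, called or not. In that comparison 0.566% of genes were called. Apolipoprotein E, Apoe, was at 3571 and 2413 CPM in DKO and 8619 and 6840 CPM in KO, a fall whose call was lost without DKO replicate 2 or KO replicate 1. The complement component C3 was at 7307 and 5809 CPM in DKO and 13259 and 11152 CPM in KO. The protease inhibitor Pzp was at 2828 and 3847 CPM in DKO and 7022 and 6278 CPM in KO. The mitochondrial oxidase subunit mt-Co1 was at 2208 and 1883 CPM in DKO and 6503 and 4829 CPM in KO. The calls of these last 3 genes were lost with total-count scaling and on leaving out either KO library or DKO replicate 1. The calls of C3 and mt-Co1 were also lost without DKO replicate 2, those of C3 and Pzp with limma and in a fit of the 4 libraries alone, and that of C3 in 10 of the 13 other settings in all.

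Albumin and Hnf4a were not called. Alb was at 5199 and 6200 CPM in DKO, against 6570 and 5477 CPM in KO, values that overlapped, with a log2 of -0.08 ± 0.55. WT livers differed widely, at 18405 and 4537 CPM. The nuclear receptor Hnf4a, a master regulator of hepatocyte genes, was at 764 and 742 CPM in DKO and 1076 and 782 CPM in KO (log2 -0.30 ± 0.21, edgeR adjusted p 0.322). Hnf4a and Alb changed sign with total-count scaling, at log2 values of 0.16 and 0.38, and neither was called.

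The start-site regions of genes named by the size of their change were read for short motifs, and those that hold one are the sequences most worth seeing beside the values. The windows ran from 250 bases before to 50 after the start (RefSeq, GRCm38.p6), and 9813 of the genes tested have exactly 1 such window. GTTAAT, part of the site bound by the hepatocyte factor HNF1, was searched on both strands. It was held by 4.68% of these windows, by 7.08% of 1187 windows of genes called lower, and by 13.2% of 220 windows of genes called lower by a log2 of at least 3. For genes called higher the shares were 3.29% of 1064 windows and 7.75% of 142 windows. TGANTCA, the AP-1 site, was held by 5.34% of all these windows, by 10.6% of the strongly rising and 8.18% of the strongly falling. Over all called genes the order was the other way, at 6.11% of those higher and 6.99% of those lower. A TEAD motif, GGAATG, was held by 12.1% of all these windows, 13.4% of the strongly rising and 14.5% of the strongly falling. Part of the HNF4A site, CAAAGTC, was held by 4.2%, 8.45% and 9.55% of the same sets, and CCAAT by 38.6%, 32.4% and 34.5%. Over all 32851 windows in the table the shares were 7.1% for GTTAAT and 7.81% for TGANTCA. These shares are descriptions, not tests, and a match is not a bound site.

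Among the named genes, GTTAAT was held by 4 of 10 falling and 1 of 11 rising genes with a single window, and TGANTCA by 1 and 2. Shown are the 120 bases before the start, 5′ to 3′ on the gene's strand, with GTTAAT or its reverse complement in capitals for the plasma proteins Mug1, Gc and Serpina1e and TGANTCA in capitals for Srxn1 and Scel. Mug1 lies at chr6:121838421-121838540 (plus strand), Gc at chr5:89457899-89458018 (minus), Serpina1e at chr12:103956898-103957017 (minus), Srxn1 at chr2:152105404-152105523 (plus) and Scel at chr14:103513221-103513340 (plus).
Mug1: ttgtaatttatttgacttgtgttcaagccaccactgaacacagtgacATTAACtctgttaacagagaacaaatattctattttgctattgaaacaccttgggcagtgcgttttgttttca
Gc: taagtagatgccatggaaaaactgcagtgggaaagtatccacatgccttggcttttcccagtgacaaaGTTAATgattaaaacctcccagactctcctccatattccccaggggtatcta
Serpina1e: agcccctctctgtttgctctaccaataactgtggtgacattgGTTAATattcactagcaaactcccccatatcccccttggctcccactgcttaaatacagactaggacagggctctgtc
Srxn1: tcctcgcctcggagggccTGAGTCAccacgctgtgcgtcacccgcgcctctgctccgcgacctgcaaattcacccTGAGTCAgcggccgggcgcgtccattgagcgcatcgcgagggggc
Scel: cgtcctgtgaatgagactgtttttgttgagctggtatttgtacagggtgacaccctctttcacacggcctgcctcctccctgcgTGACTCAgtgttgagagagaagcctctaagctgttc
The motif began 73, 52 and 78 bases before the start in Mug1, Gc and Serpina1e. In Srxn1 it began 102 and 45 bases before the start, and in Scel 36. Not shown are the falling genes Ptgds, where TGANTCA began 35 bases before the start, and Pzp, where GTTAAT began 79 bases before it. Scel also held the reverse complement of GTTAAT from base 1 after the start, just past the stretch shown.

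Of 30 genes for secreted hepatocyte proteins, 20 were lower in DKO and 1 higher by the test (median log2 -1.31, against 0.02 over all genes tested). Serpina1c, which encodes an alpha-1 antitrypsin, fell to 23.04 and 14.2 CPM in DKO, against 1337 and 924 CPM in KO and 904 and 1058 CPM in WT (log2 -5.92 ± 0.38). Serpina1a fell to 51.0 and 17.6 CPM in DKO, against 925 and 675 CPM in KO. Serpina1e, whose start-site region is shown above, was at 10.5 and 3.76 CPM in DKO and 1102 and 523 CPM in KO. WT livers differed widely for Serpina1e, at 127 and 3786 CPM, and its call was lost without either DKO library. The Serpina1 genes are near-identical copies, and the Cyp2d, Sult2a, Ugt and Mup families also hold closely related members. The split of reads among such members is uncertain. Vitronectin, Vtn, fell to 733 and 750 CPM in DKO, against 2690 and 2359 CPM in KO (log2 -1.77 ± 0.21). Without DKO replicate 2 the number of secreted proteins called lower was 13.

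Clotting factor genes fell too, with 18 of 24 coagulation genes lower at a median log2 of -1.32. Klkb1, which encodes plasma prekallikrein, fell to 12.8 and 13.3 CPM in DKO, against 349 and 277 CPM in KO and 277 and 263 CPM in WT (log2 -4.58 ± 0.23, edgeR adjusted p 4.89e-06). Factor V, F5, fell to 212 and 170 CPM in DKO, against 1218 and 1145 CPM in KO. Factor XI, F11, was at 11.6 and 4.65 CPM in DKO and 236 and 193 CPM in KO. These genes were picked by their p in this comparison, so the distance of DKO from KO is not separate support. Against WT, the KO livers were higher for F5 and F11 and overlapped for Klkb1.

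Complement and acute phase genes showed the same direction. Of 23 genes for complement and innate plasma proteins, 16 fell (median log2 -1.27), and of 20 acute phase genes 13 fell (median log2 -2.15). C4bp, an inhibitor of complement, was at 76.6 and 40.5 CPM in DKO and 870 and 875 CPM in KO (log2 -3.90 ± 0.32). The mannose-binding lectin Mbl2, which recognises microbial sugars, was at 65.0 and 108 CPM in DKO and 1063 and 975 CPM in KO (log2 -3.56 ± 0.35). Haptoglobin, Hp, which binds free haemoglobin, was at 843 and 486 CPM in DKO and 4219 and 3021 CPM in KO. Saa4, a constitutive serum amyloid, was at 11.5 and 1.45 CPM in DKO and 832 and 534 CPM in KO (log2 -6.73 ± 0.91). Against WT, the KO livers were higher for C4bp and Mbl2 and overlapped for Hp and Saa4. Without KO replicate 1 the acute phase genes called lower numbered 8.

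Falls also covered amino acid metabolism and genes of both zones of the lobule. Of 36 urea cycle and amino acid enzymes, 23 fell, at a median log2 of -1.58. Haao, an enzyme of tryptophan breakdown, was at 23.9 and 18.5 CPM in DKO and 530 and 497 CPM in KO (log2 -4.60 ± 0.29). Mat1a, which makes S-adenosylmethionine in adult hepatocytes, was at 254 and 289 CPM in DKO and 3636 and 2841 CPM in KO (log2 -3.58 ± 0.39). Of 20 genes expressed mainly near the central vein 14 fell (median log2 -2.65), and of 20 expressed mainly near the portal vein 9 fell and 1 rose (median log2 -0.69). The pericentral glutamate transporter Slc1a2 was at 1.496 and 0.937 CPM in DKO, against 157 and 78.3 CPM in KO and 218 and 230 CPM in WT (log2 -6.61 ± 0.42). Among periportal genes, Hal, which degrades histidine, was at 31.9 and 7.42 CPM in DKO and 674 and 598 CPM in KO. Cyp2f2, also periportal, was at 99.6 and 55.9 CPM in DKO and 905 and 1040 CPM in KO. The difference between the pericentral and periportal counts was not tested.

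Bile acid synthesis, drug metabolism and transport lists also held more falls than rises. The hepatocyte lists share members, so their counts are not separate results. Hal is counted as amino acid and periportal, Cyp2f2 as periportal and cytochrome P450, and Nr1h4 as bile acid gene and transcription factor. Hp is counted as acute phase and iron gene, and Slc2a2 as solute carrier and glucose gene. Of 26 bile acid genes 15 fell (median log2 -1.80), of 55 cytochrome P450s 26 fell and 4 rose (median log2 -2.33), of 27 glucuronosyl- and sulfotransferases 14 fell (median log2 -2.17), and of 30 solute carriers 21 fell and 1 rose (median log2 -2.25). Cyp8b1, the sterol 12-alpha-hydroxylase that sets cholic acid output, was at 3.75 and 2.19 CPM in DKO, against 289 and 305 CPM in KO and 272 and 311 CPM in WT (log2 -6.65 ± 0.57). Akr1d1, the next reductase of that pathway, was at 35.0 and 18.8 CPM in DKO and 593 and 647 CPM in KO. The sulfotransferase Sult2a7 had 0 counts in either DKO library, against 6.45 and 14.8 CPM in KO. With 3 counts in the pooled DKO libraries taken as the floor, Sult2a7 was at least 415-fold lower in DKO. Ugt3a2, a sugar-conjugating enzyme, was at 7.72 and 4.15 CPM in DKO and 582 and 649 CPM in KO (log2 -6.70 ± 0.35). The glucose transporter of hepatocytes, Slc2a2, was at 96.2 and 121 CPM in DKO and 539 and 510 CPM in KO. With total-count scaling the members called lower were 14 bile acid, 25 cytochrome P450, 11 transferase and 20 carrier genes.

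Transcription factors of the hepatocyte moved less uniformly, with 8 of 26 lower, 2 higher and a median log2 of -0.66. The bile acid receptor Nr1h4 fell to 31.7 and 24.9 CPM in DKO, against 185 and 208 CPM in KO and 281 and 266 CPM in WT (log2 -2.80 ± 0.31). Tbx3, a T-box repressor of early liver development, fell to 2.26 and 3.19 CPM in DKO, against 31.0 and 35.2 CPM in KO. Onecut2 was at 23.8 and 31.1 CPM in DKO and 146 and 154 CPM in KO. Against WT, the KO livers were lower for Nr1h4 and Onecut2 and overlapped for Tbx3. In each fit that left out 1 library, the factors called lower were 4 without DKO replicate 1, 8 without DKO replicate 2, 5 without KO replicate 1 and 6 without KO replicate 2. With total-count scaling 5 were called lower and 4 higher. Neither of the 2 rises kept its call in the fits that left out 1 library. DESeq2 on all libraries called 2 higher.

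**Figure D2:**
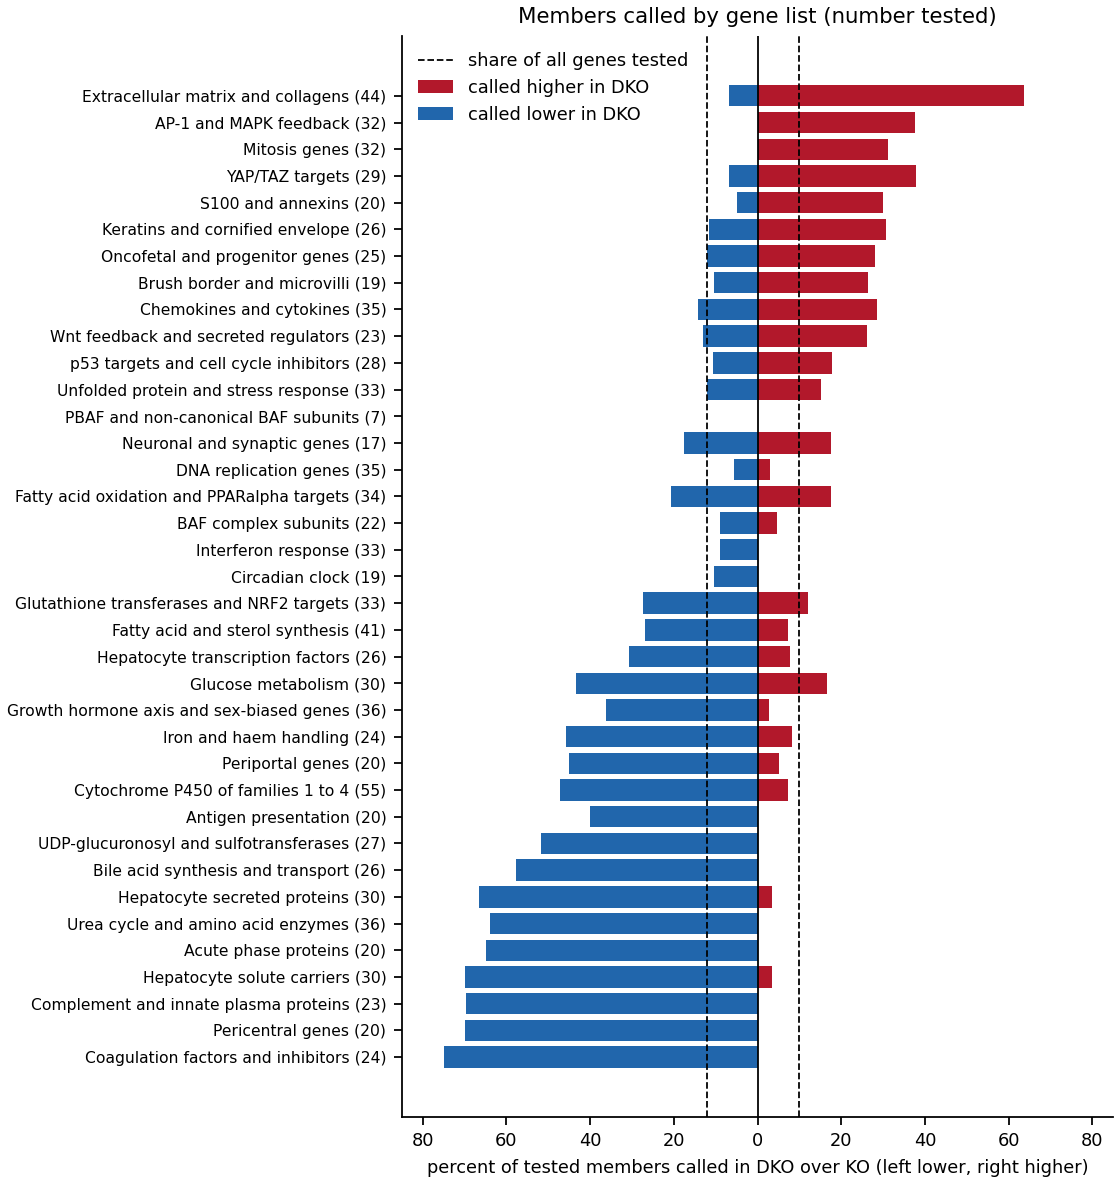
Bars give the percent of tested members of each gene list called higher (red, right) or lower (blue, left) in DKO over KO, with the number tested in brackets. Dashed lines mark the shares over all genes tested, 9.92% higher and 12.1% lower. Coagulation, with 18 of 24 lower, stands at the bottom and extracellular matrix, with 28 of 44 higher, at the top.

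Lipid and glucose lists held calls in both directions, set here against 9.92% higher and 12.1% lower over all genes tested. Of 41 genes of fatty acid and sterol synthesis 11 fell and 3 rose, the rises below the share over all genes. Dgat2, which completes triglyceride synthesis, was at 60.8 and 59.8 CPM in DKO and 954 and 830 CPM in KO (log2 -3.89 ± 0.41). Thrsp, a lipogenic response gene, was at 6.01 and 9.37 CPM in DKO and 1069 and 446 CPM in KO. The desaturase Scd2 rose to 280 and 251 CPM in DKO, against 47.2 and 65.4 CPM in KO and 10.5 and 15.1 CPM in WT. Of 34 genes of fatty acid oxidation 7 fell and 6 rose. The mitochondrial thioesterase Acot2 rose to 127 and 159 CPM in DKO, against 3.37 and 3.69 CPM in KO and 9.79 and 9.19 CPM in WT (log2 5.34 ± 0.36, edgeR adjusted p 1.69e-05). Of 30 glucose metabolism genes 13 fell and 5 rose. Gckr, the inhibitor of glucokinase, was at 23.7 and 5.66 CPM in DKO and 459 and 579 CPM in KO. With total-count scaling 7 lipid synthesis genes and 3 oxidation genes were called lower. Lipid synthesis genes called lower numbered 4 without DKO replicate 1, 24 without DKO replicate 2, 5 without KO replicate 1 and 6 without KO replicate 2. The oxidation genes called lower numbered 3 without DKO replicate 1 or either KO library, and the glucose genes called lower numbered 8 without KO replicate 1. Oxidation genes called higher numbered 3 without KO replicate 1 and 2 without KO replicate 2, and 4 without DKO replicate 1. Glucose genes called higher numbered 1 without DKO replicate 1, 1 without KO replicate 1, 2 without KO replicate 2 and 9 with total-count scaling. Lipid synthesis genes called higher numbered 1 without either KO library.

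Growth hormone, iron and antioxidant lists held more called falls than called rises. Over all genes tested 12.1% were lower and 9.92% higher, and the rises of the iron and antioxidant lists were near that higher share. Of 36 growth hormone and sex-biased genes 13 fell and 1 rose, among them the receptor Ghr, at 88.3 and 110 CPM in DKO and 473 and 439 CPM in KO. Its target Igf1 was at 248.7 and 218 CPM in DKO and 717 and 495 CPM in KO. Of 24 iron and haem genes 11 fell and 2 rose. Alas2 was at 5.42 and 8.34 CPM in DKO and 41.6 and 53.7 CPM in KO. Alas2 encodes the erythroid enzyme that starts haem synthesis. Of 33 glutathione transferases and NRF2 targets 9 fell and 4 rose. As a whole this list had no clear direction, with a median log2 of -0.04 and 16 of 33 members positive. G6pdx, which makes NADPH, rose to 298 and 282 CPM in DKO, against 17.1 and 19.6 CPM in KO and 8.27 and 13.5 CPM in WT (log2 3.98 ± 0.33). Srxn1, which restores oxidised peroxiredoxins and whose start-site region is shown above, was at 906 and 1290 CPM in DKO and 247 and 280 CPM in KO, against 60.2 and 92.2 CPM in WT. The call of Srxn1 was lost on leaving out either KO library. Glutathione and NRF2 genes called lower numbered 6 and 5 without DKO replicates 1 and 2, and 4 and 5 without KO replicates 1 and 2. Those called higher numbered 1 without either KO library. With total-count scaling 9 were called higher and 5 lower.

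**Figure D3:**
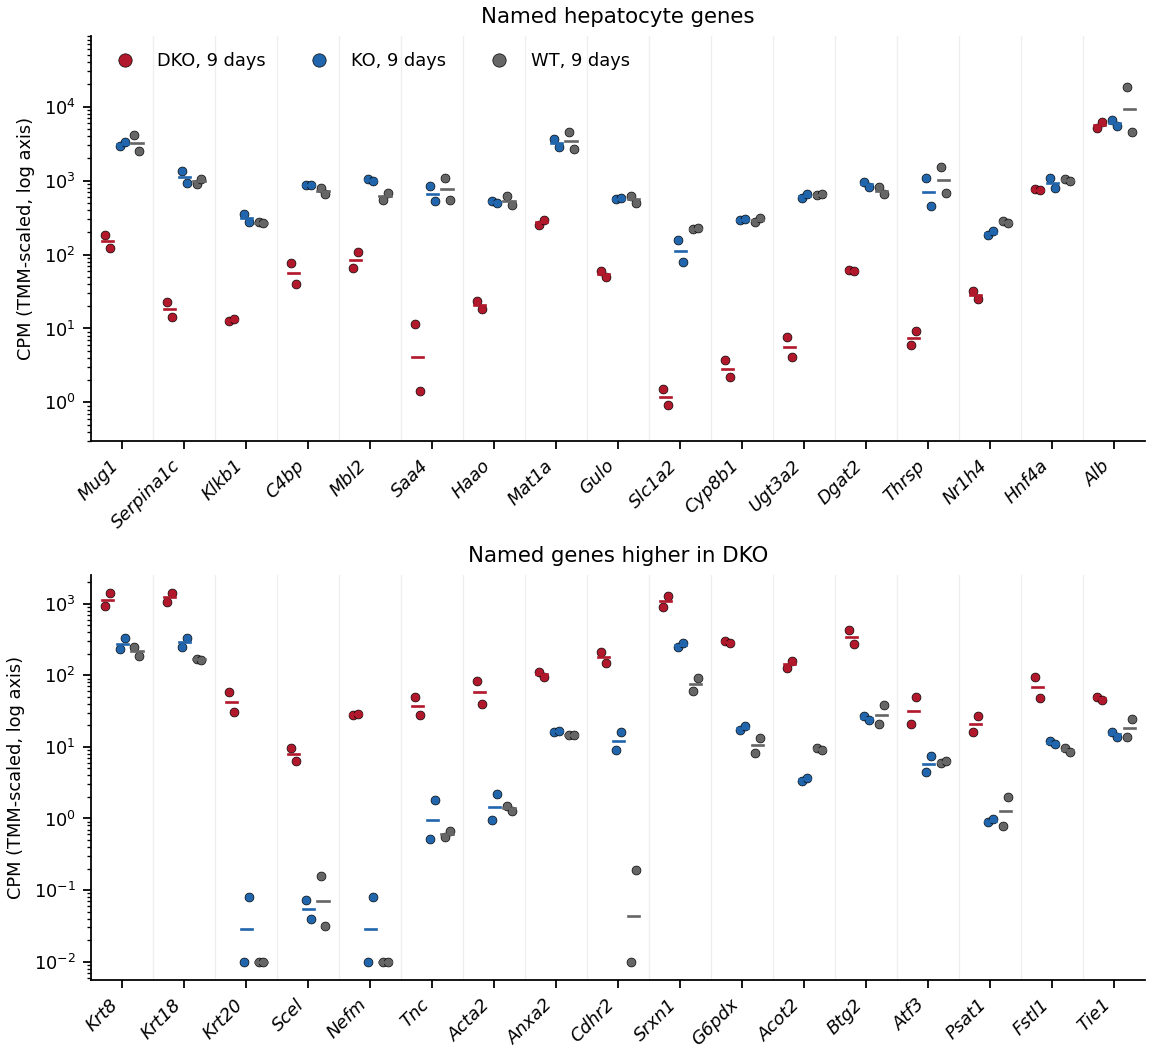
TMM-scaled CPM on a log axis in each library of DKO (red), KO (blue) and WT (grey) livers at 9 days, with a bar at the geometric mean of each pair and values of 0 or under the axis floor drawn at 0.01. The upper panel holds hepatocyte genes, most of them lower in DKO, such as Cyp8b1 at 3.75 and 2.19 CPM against 289 and 305 CPM in KO, while Alb overlaps between DKO and KO. The lower panel holds genes higher in DKO, such as Krt20 at 59.3 and 30.7 CPM against 0 and 0.0793 CPM in KO.

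Among the largest rises were transcripts at or near 0 in KO and WT livers. Krt20, a keratin of gut epithelium, was at 59.3 and 30.7 CPM in DKO, against 0 and 0.0793 CPM in KO and 0 in both WT libraries. The KO libraries held 2 counts in all, which gives a ratio of 819 with a 95% counting interval of 227 to 6766. The neurofilament gene Nefm was at 27.8 and 29.0 CPM in DKO, against 0 and 0.0793 CPM in KO and 0 in WT, a ratio of 555 (153 to 4581). Scel, a precursor of the cornified envelope, was at 9.69 and 6.35 CPM in DKO and 0.0733 and 0.0396 CPM in KO, a ratio of 149 (41.3 to 1237). The gut hormone gene Cck was at 10.3 and 2.32 CPM in DKO and at 0 in KO, at least 71.5-fold higher against 3 counts over the group, with 0.636 and 1.73 CPM in WT. Its call was lost without KO replicate 2. Sfrp4, Adra2a and Epdr1 rested on DKO replicate 1, with Sfrp4 at 119 and 0.445 CPM in DKO, and were not called without that library or without either KO library. Intervals and floors cover counting error only.

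Among abundant transcripts the simple epithelial keratins rose. Krt8 was at 930 and 1394 CPM in DKO, against 233 and 331 CPM in KO and 252 and 187 CPM in WT (log2 2.04 ± 0.33). Its partner Krt18 was at 1074 and 1398 CPM in DKO, against 248 and 334 CPM in KO and 170 and 165 CPM in WT (log2 2.09 ± 0.25). Of 26 keratin and cornified envelope genes 8 rose and 3 fell, at a median log2 of 0.90. The lysosomal protease Ctsl was at 2430 and 1687 CPM in DKO and 779 and 797 CPM in KO. The pyrophosphatase Ppa1 was at 1084 and 861 CPM in DKO and 272 and 252 CPM in KO. Against WT, the KO livers were higher for Krt18, Ctsl and Ppa1 and overlapped for Krt8. Of 20 S100 and annexin genes 6 rose and 1 fell, with Anxa2, a membrane-binding annexin, at 112 and 95.4 CPM in DKO and 16.2 and 16.7 CPM in KO. The brush border list had 5 of 19 higher and 2 lower. Of 25 oncofetal and progenitor genes 7 rose and 3 fell, with the progenitor factor Sox4 at 12.9 and 17.4 CPM in DKO and 2.34 and 2.89 CPM in KO. Of 17 neuronal and synaptic genes 3 rose and 3 fell, and of 19 circadian clock genes 2 fell. These are 35.3% and 10.5% called, against 22.0% over all genes tested (9.92% higher and 12.1% lower). The falls of the keratin, brush border and oncofetal lists were near that lower share. Oncofetal genes called higher numbered 4 without DKO replicate 1, 3 without KO replicate 1 and 2 without KO replicate 2. Keratin genes called higher numbered 5 and 4 without KO replicates 1 and 2. The S100 and annexin genes called higher numbered 3 without DKO replicate 1 or either KO library, and the brush border genes 3 without DKO replicate 1 and 2 without either KO library.

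Immediate-early, growth factor feedback and YAP target genes gave more rises than falls. Of 32 genes of AP-1 and MAPK feedback 12 rose (median log2 1.07), and of 29 YAP/TAZ targets 11 rose and 2 fell (median log2 0.94). Spry1, an inhibitor of receptor tyrosine kinase signalling, was at 19.8 and 16.6 CPM in DKO and 6.23 and 5.31 CPM in KO. The stress-induced factor Atf3 was at 20.6 and 50.3 CPM in DKO and 4.47 and 7.45 CPM in KO. Dusp9, a MAPK phosphatase named for its size of change, was at 58.5 and 38.4 CPM in DKO and 1.03 and 0.595 CPM in KO (log2 5.94 ± 0.76). Among YAP targets, Fstl1 was at 94.9 and 48.4 CPM in DKO and 12.2 and 10.9 CPM in KO, while the tissue factor gene F3 fell to 2.52 and 1.95 CPM in DKO, against 18.3 and 11.7 CPM in KO. Against WT, the KO livers were higher for Dusp9, Fstl1 and F3 and overlapped for Spry1 and Atf3. The AP-1 and MAPK genes called higher numbered 6 without either DKO library, 1 without KO replicate 1 and 2 without KO replicate 2. YAP/TAZ targets called higher numbered 5 and 6 without DKO replicates 1 and 2, and 2 without either KO library. The Atf3 call was lost without DKO replicate 2 or KO replicate 1. With total-count scaling 18 YAP/TAZ targets were called higher.

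Cell cycle and stress lists were mixed. Of 32 mitosis genes 10 rose, at a median log2 of 1.59. Ube2c, which drives exit from mitosis, was at 11.2 and 34.7 CPM in DKO and 4.10 and 4.796 CPM in KO. DKO replicate 2 was the higher of the DKO libraries in all 10, with Cdk1, the mitotic kinase, at 16.2 and 38.0 CPM in DKO and 7.92 and 8.13 CPM in KO. The calls of Ube2c and Cdk1 were lost without DKO replicate 2 or either KO library. Without DKO replicate 1, 18 mitosis genes were called higher, and with total-count scaling 25. Without DKO replicate 2 or either KO library, edgeR called 0, with 1, 8 and 19 at an unadjusted p under 0.05, and on all libraries DESeq2 called 19. Of 35 DNA replication genes 1 rose and 2 fell (median log2 0.71), a balance that turned to 12 higher and 1 lower with total-count scaling. Of 28 p53 targets and cell cycle inhibitors 5 rose and 3 fell. Btg2, an antiproliferative p53 target, was at 426 and 270 CPM in DKO and 26.6 and 24.1 CPM in KO (log2 3.78 ± 0.54). Of 33 genes of the unfolded protein and amino acid stress response 5 rose and 4 fell. The shares called were 8.57% for replication, 28.6% for p53 and 27.3% for stress genes. Over all genes tested they were 22.0% (9.92% higher and 12.1% lower). The falls of the p53 and stress lists were near that lower share. Psat1, a serine synthesis enzyme induced by ATF4, was at 16.4 and 27.0 CPM in DKO and 0.879 and 0.991 CPM in KO (log2 4.52 ± 0.56). The p53 genes called higher numbered 3 without DKO replicate 1, 3 without KO replicate 1 and 2 without KO replicate 2. With total-count scaling 8 stress genes were called higher and 0 lower, where 3 were lower at an unadjusted p under 0.05 in edgeR. The stress genes called higher numbered 3 and 2 without DKO replicates 1 and 2, and 1 without either KO library.

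By the share of members called higher, the extracellular matrix list stood first in the main fit, with 28 of 44 genes higher and 3 lower. Its median log2 was 1.53, and those of mitosis genes (1.59), stellate markers (1.63) and neutrophil markers (1.76) were above it. Tenascin C, Tnc, a matrix glycoprotein of wounded tissue, was at 49.4 and 28.2 CPM in DKO and 0.513 and 1.78 CPM in KO (log2 4.999 ± 0.64). Col8a1 was at 16.8 and 7.29 CPM in DKO and 0.513 and 0.832 CPM in KO. The fibrillar collagen Col5a1 was at 123 and 63.4 CPM in DKO and 16.9 and 17.2 CPM in KO. Lama3, a laminin chain, fell to 1.19 and 1.22 CPM in DKO, against 20.6 and 8.76 CPM in KO. Matrix genes called higher numbered 14 without DKO replicate 1, 28 without DKO replicate 2, 14 without KO replicate 1 and 13 without KO replicate 2.

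Markers of stellate cells and fibroblasts, which make much of this matrix, gave more rises than falls. The marker list itself holds the matrix genes Col1a1, Col1a2, Col3a1, Dcn and Lum, so it is not a result separate from that of the matrix. Of 20 such markers 11 rose (median log2 1.63), and their summed level was 2988 and 1514 CPM in DKO, against 653 and 647 CPM in KO and 493 and 641 CPM in WT. Acta2, the smooth muscle actin of activated stellate cells, was at 84.7 and 40.4 CPM in DKO and 0.953 and 2.18 CPM in KO (log2 5.27 ± 0.58). The quiescent stellate markers Lrat and Reln were not called, with Lrat at 34.4 and 9.40 CPM in DKO and 10.99 and 10.8 CPM in KO, and Reln at 148 and 73.1 CPM in DKO and 78.9 and 103 CPM in KO. In bulk tissue more cells of a type and more RNA per cell cannot be told apart, nor can fewer cells and less RNA per cell. The part of these cells in the matrix and collagen result was not tested. Stellate markers called higher numbered 6 without DKO replicate 1, 14 without DKO replicate 2, 7 without KO replicate 1 and 5 without KO replicate 2.

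The other marker lists stood as follows. Of 19 endothelial markers 10 rose (median log2 1.44), with a summed level of 1450 and 1252 CPM in DKO, 558 and 518 CPM in KO and 552 and 934 CPM in WT. The receptor Tie1 was at 50.1 and 45.4 CPM in DKO and 16.1 and 13.8 CPM in KO. Of 15 cholangiocyte markers 7 rose and 1 fell (summed level 817 and 517 CPM in DKO, 291 and 309 CPM in KO). The water channel Aqp1 was at 241 and 212 CPM in DKO and 69.1 and 61.2 CPM in KO. The duct keratins Krt19 and Krt7 were not called, with Krt19 at 7.77 and 1.95 CPM in DKO and 3.15 and 2.93 CPM in KO. Of 20 macrophage markers 4 rose (summed level 3933 and 2201 CPM in DKO, 1335 and 2520 CPM in KO), and the Kupffer cell markers Clec4f and Timd4 were not called. Gpnmb, a marker of lipid-associated macrophages, was at 175 and 32.1 CPM in DKO and 5.13 and 6.30 CPM in KO, and its call was lost without DKO replicate 1 or either KO library. Of 20 lymphocyte and 12 neutrophil markers edgeR called 0 in either direction, with 3 and 4 at an unadjusted p under 0.05, and DESeq2 called 0 and 2. The summed level of the neutrophil markers was 94.6 and 42.8 CPM in DKO, 28.1 and 20.1 CPM in KO and 18.4 and 22.6 CPM in WT. All 12 neutrophil markers had a positive log2 (median 1.76). Of 15 hepatocyte markers 10 fell, and their summed level was 28871 and 28061 CPM in DKO, 52182 and 43624 CPM in KO and 65029 and 37432 CPM in WT. Of 7 erythroid markers 1 fell, Alas2, which is also on the iron and haem list. Of 5 exocrine pancreas markers, an organ next to the liver, 1 rose and 2 fell. Their summed level was 12.4 and 9.77 CPM in DKO and 56.6 and 45.8 CPM in KO. The shares called were 20% for macrophage, 14.3% for erythroid and 60% for pancreas markers, against 22.0% over all genes tested (9.92% higher and 12.1% lower). They were 52.6% for endothelial, 53.3% for cholangiocyte and 66.7% for hepatocyte markers.

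Marker counts depended on single libraries. The calls of Tie1 and Aqp1 were lost without KO replicate 2. Endothelial markers called higher numbered 2 and 3 without DKO replicates 1 and 2, 1 without KO replicate 1 and 0 without KO replicate 2, where edgeR gave 10 at an unadjusted p under 0.05. Cholangiocyte markers called higher numbered 2 without DKO replicate 1, 1 without KO replicate 1 and 0 without KO replicate 2, the last with 7 at an unadjusted p under 0.05. Macrophage markers called higher numbered 0 without DKO replicate 1, 0 without KO replicate 1 and 0 without KO replicate 2, with 2, 2 and 8 at an unadjusted p under 0.05. The hepatocyte markers called lower numbered 6 without KO replicate 1. With total-count scaling, 18 endothelial, 15 stellate, 7 cholangiocyte and 6 macrophage markers were called higher and 7 hepatocyte markers lower. The part of these cell types in the genes that rose was not tested.

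**Figure D4:**
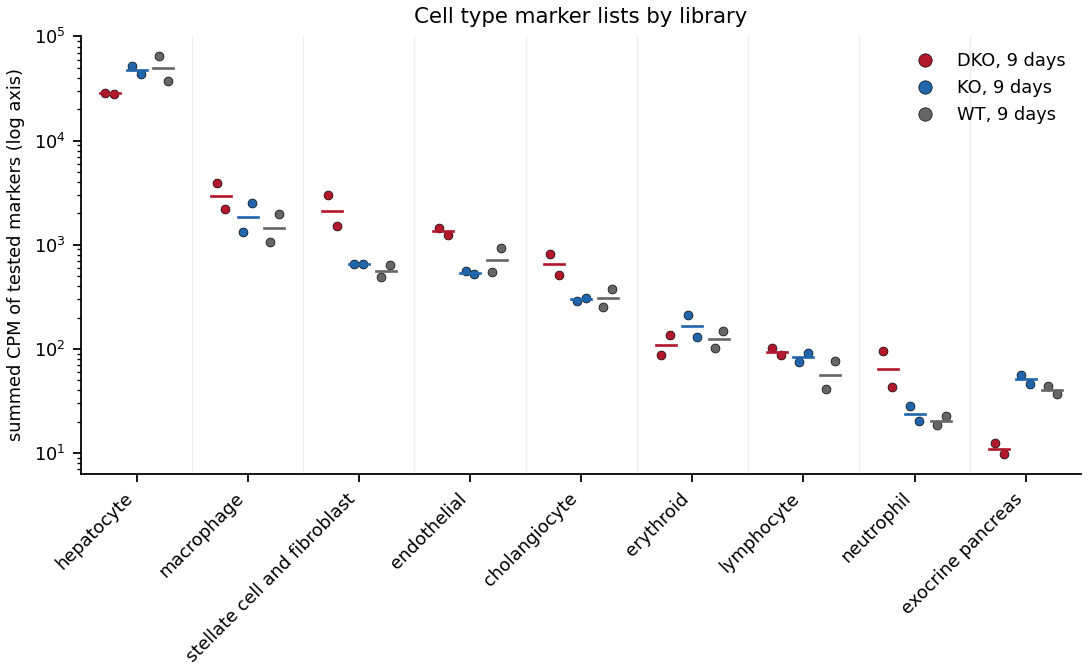
Summed CPM of the tested markers of 9 cell types, on a log axis, in each library of DKO (red), KO (blue) and WT (grey) livers at 9 days, with a bar at the geometric mean of each pair. Hepatocyte sums are lower in DKO, at 28871 and 28061 CPM against 52182 and 43624 CPM in KO. Stellate, endothelial, cholangiocyte and neutrophil sums are higher in both DKO libraries than in KO, and exocrine pancreas sums are lower. Macrophage, lymphocyte and erythroid sums overlap between DKO and KO.

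Immune and signalling lists were led by falls in antigen presentation. Of 20 antigen presentation genes 8 fell, among them the class I heavy chain H2-K1, at 712 and 978 CPM in DKO and 2141 and 1833 CPM in KO (log2 -1.23 ± 0.21). Its light chain B2m was at 509 and 558 CPM in DKO and 1356 and 1195 CPM in KO. Both genes were higher in KO than in WT livers. Of 33 interferon response genes 3 fell, against 12.1% lower over all genes. Without 1 library the interferon genes called lower numbered 1 without DKO replicate 1, 5 without DKO replicate 2, 1 without KO replicate 1 and 2 without KO replicate 2, and with total-count scaling 1. In KO against WT at 30 days, 11 of these 33 were called, all higher, and of the 11 only Gbp3 and Bst2 fell in DKO against KO. The Bst2 call was lost in 5 settings, among them total-count scaling and leaving out DKO replicate 1 or KO replicate 1. Of 35 chemokine and cytokine genes 10 rose and 5 fell, with Cxcl14 at 23.7 and 10.1 CPM in DKO and 1.76 and 2.06 CPM in KO, and Cxcl9 at 7.36 and 9.83 CPM in DKO and 35.0 and 45.1 CPM in KO. Cxcl14 and Cxcl9 are chemokines for leukocytes. With total-count scaling 17 chemokine and cytokine genes were called higher and 3 lower. Of 23 Wnt feedback genes 6 rose and 3 fell. The falls of the chemokine and Wnt lists were near the 12.1% lower over all genes tested, where 9.92% were higher. The Wnt deacylase Notum fell to 1.76 and 2.37 CPM in DKO, against 49.9 and 32.7 CPM in KO and 45.1 and 51.5 CPM in WT (log2 -4.31 ± 0.43). Antigen presentation genes called lower numbered 4 without DKO replicate 1, 5 without DKO replicate 2 and 4 without either KO library, and 4 with total-count scaling. Chemokine genes called higher numbered 1 without DKO replicate 1, and 3 and 2 without KO replicates 1 and 2. Wnt genes called higher numbered 0 without DKO replicate 1, 1 without KO replicate 1 and 0 without KO replicate 2, where edgeR gave 2, 6 and 5 at an unadjusted p under 0.05.

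A further question was how genes that differed with Arid1a loss alone stood in DKO livers. The 30-day livers address it without sharing a library with DKO against KO. In KO against WT at 30 days 92 genes were called (0.516%), 51 higher (0.286%) and 41 lower (0.230%). Of these 92, 46 were also called in DKO against KO, which is 50% of the 30-day calls and 1.17% of the DKO calls. Over all genes tested 22.0% were called in DKO against KO. In 33 the DKO over KO change was opposite in direction to the KO over WT change, and in 13 it was the same. The opposite calls comprised 17 genes higher at 30 days and lower in DKO, and 16 lower at 30 days and higher in DKO.

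Some genes with opposite changes were close to 0 in WT livers. Hao2, a peroxisomal hydroxyacid oxidase with sex-biased expression, was at 0.285 and 0.191 CPM in DKO, against 11.8 and 30.8 CPM in KO at 9 days and 0.159 and 0.157 CPM in WT. At 30 days Hao2 was at 3.16 and 13.3 CPM in KO and 0.0948 and 0.0898 CPM in WT. The serotonin receptor gene Htr1d was at 0 and 0.0635 CPM in DKO, against 2.27 and 6.26 CPM in KO and 0 in both WT livers at 9 days. DKO and WT values lay together and the KO values apart in both genes. Tff3, a mucosal repair peptide, stood between the KO and WT levels in DKO, with 50.9 and 51.3 CPM in DKO, 220 and 212 CPM in KO and 4.06 and 7.08 CPM in WT. Its call was lost without DKO replicate 1, DKO replicate 2 or KO replicate 1. The guanylate-binding GTPase Gbp3 was at 34.1 and 36.4 CPM in DKO, 103 and 123 CPM in KO and 24.1 and 40.1 CPM in WT.

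Of the 41 genes lower in KO than in WT at 30 days, 16 were called higher in DKO over KO, 6 were called lower and 19 were not called. Serinc2, a membrane protein gene, was at 10.05 and 11.4 CPM in DKO, against 1.69 and 0.555 CPM in KO and 14.001 and 18.4 CPM in WT. The DKO values of Serinc2 were above those of KO and below those of WT. Pde9a, a phosphodiesterase of cyclic GMP, was at 0.879 and 1.11 CPM in DKO, against 0.147 and 0.198 CPM in KO and 19.3 and 15.6 CPM in WT. Pde9a remained far below WT, and its call was lost without DKO replicate 2 or either KO library. Of the 17 genes higher at 30 days and lower in DKO, 12 were not called in DKO against WT, 4 were called below WT and 1 above it, and the median log2 of DKO over WT for all 17 was 0.13. Of the 16 lower at 30 days and higher in DKO, 10 were not called, 5 were called below WT and 1 above it, and the median log2 for all 16 was -0.53. The last comparison shares the DKO libraries with the one that chose these genes.

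Genes called in the same direction stood further from WT in DKO than in KO. Cdhr2, a cadherin of the brush border, was at 215 and 150 CPM in DKO, against 8.94 and 16.2 CPM in KO and 0 and 0.189 CPM in WT (log2 3.85 ± 0.56). The order of Cdhr2 was DKO over KO over WT in every library. Ugt3a1 went the other way, at 0.285 and 0.175 CPM in DKO, 9.38 and 22.9 CPM in KO and 91.2 and 79.7 CPM in WT. Scd2 and Slc1a2, described above, were also among the 13.

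The 30-day calls were few and depended on the libraries fitted. Without WT replicate 2 of the 30-day livers 1 gene was called, without WT replicate 1 32, without KO replicate 2 27 and without KO replicate 1 177. The opposite and same calls were then 1 and 0, 15 and 6, 14 and 3, and 31 and 39. DESeq2 called 412 genes at 30 days, with 114 opposite and 83 same, and edgeR without a low-count filter called 942, with 247 opposite and 289 same. In the agonist-treated livers, a comparison added after the data had been seen, 883 genes (4.95%) were called in KO against WT, 543 higher (3.05%) and 340 lower (1.91%). The agonist KO mice are labelled 30 days, while titles put the agonist WT mice at 9 and another label at 30. Of these 883 genes 411 were called in DKO against KO, which is 46.5% of the agonist calls and 10.5% of the DKO calls, 363 in the same direction and 48 in the opposite.

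**Figure D5:**
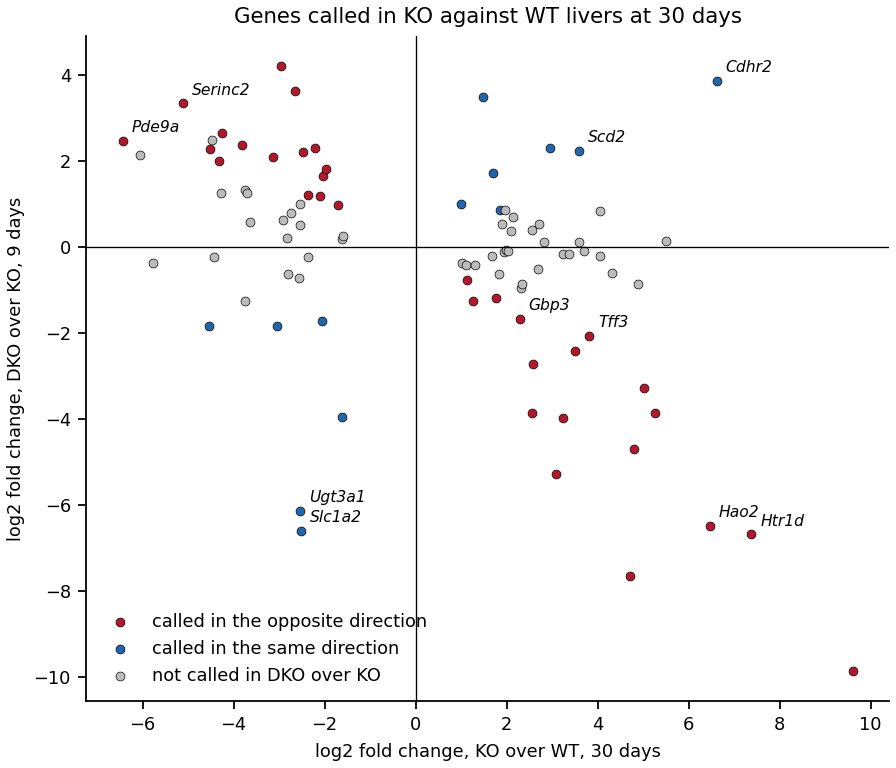
Each point is 1 of the 92 genes called in KO against WT livers at 30 days. The x axis is that log2 fold change and the y axis the log2 fold change of DKO over KO at 9 days, from libraries that do not overlap. Red marks the 33 genes called in the opposite direction, blue the 13 called in the same direction and grey those not called in DKO over KO.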

How the data were processed

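RNA of mouse liver was sequenced after TruSeq RNA library preparation, per the labels' protocols. Reads were trimmed with fastp, aligned with STAR 2.7.3 and counted with featureCounts on GRCm38.p6, per the submitters' processing notes. Strand setting and annotation release are not stated by these sources, so overlapping and antisense genes are uncertain. The deposited raw counts per gene were the values tested. The authors' normalized signal, which is each count times 1 factor per library, served in the limma-trend alternative with a pseudocount of 1 before log2.

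Tests used edgeR 4.0.16 in R 4.3.3, with filterByExpr, TMM scaling and a quasi-likelihood F test on 14 liver libraries in 7 groups, which leaves 7 residual degrees of freedom. The 2 tumour libraries were left out and entered as an alternative. Adjusted p-values are Benjamini-Hochberg over all 17831 genes. The script was tested on simulated data. Counting intervals are at 95% and the floor is 3 counts. The square root of the common dispersion was 29.3%. DESeq2 1.42.0 and limma 3.58.1, other scalings and filters, a replicate block and leaving out each library were tried.

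The members and the 46 gene lists were chosen with earlier results of these data known. Named genes were the 10 largest log2 rises and falls and the 8 largest CPM differences each way, among called genes that averaged at least 2 CPM, did not overlap between groups and were no predicted genes. Up to 4 called members of a list were added by p. For these the level and overlap conditions of the written rule were not applied, and Dpf1 is the only list member with values in the text that falls below 2 CPM. Arid1a, Arid1b, Smarca4, Hnf4a and Alb were followed whatever their values, as were up to 3 30-day genes per direction. Lrat, Reln, Krt19, Krt7, Clec4f, Timd4 and the genes called in the same direction at 30 days were chosen after their values were seen. Promoter windows are from RefSeq, read for genes with exactly 1 window.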

Additional observations from a re-analysis of the deposited data

How the results depend on the processing

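The 194 genes followed were refitted in 13 other settings, with 5 genes missing from 1 of them. In all, 2327 gene and setting pairs kept direction and side of the threshold, 183 lost a call, 3 gained one and 4 changed sign. The sign changes were of Hnf4a with total-count scaling (log2 0.16) and of Alb with total-count scaling (0.38), without DKO replicate 1 (0.0538) and without KO replicate 1 (0.0448), none of them called. Over the fits without 1 library Alb ranged over -0.239 to 0.0538. Total-count scaling gave 4811 genes higher and 1285 lower in DKO against KO, against 1769 and 2159. Leaving out 1 library gave 421 to 1260 genes higher and 1197 to 1490 lower. These fits leave 1 sample in a group and assume that it varies like the other groups. DESeq2 gave 2250 higher and 2396 lower, and limma 1699 and 2014. For KO against WT at 30 days, the 92 calls became 942 with no low-count filter, 412 with DESeq2, 52 with all 16 libraries and 1 to 177 without 1 library. A fit of the 4 libraries of that comparison alone called 0 genes in edgeR, with 1048 at an unadjusted p under 0.05. The cause was not tested.

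With the replicate number as a block, 2003 genes were higher and 2507 lower in DKO against KO, and 93 were called at 30 days. Same-numbered libraries deviated together with a correlation across genes of 0.0573 for DKO and KO and 0.239 for KO and WT at 30 days. Over all pairs of liver groups it ran from -0.0779 (DKO and KO at 30 days) to 0.366 (WT at 30 days and WT with agonist). Replicate 1 was the shallower library in every group. With 2 numbers a group, same-numbered libraries were taken to share only a number, and whether they share more was not tested. Of the counts over lists, 951 were within 1.5 times of the first value over the settings and 245 were not. Depth limits low genes, since 3 counts correspond to 0.0713 and 0.0477 CPM in DKO and 0.220 and 0.119 CPM in KO.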
